A study of Mus musculus with 9 samples.

Results

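Collagen-induced arthritis (CIA) is a mouse model of rheumatoid arthritis in which an immune response raised against cartilage collagen inflames the joints, and its blood was compared here with that of control mice (Ctrl). The comparison used the 6 libraries labelled as non-irradiated out of the 9 of the series, 3 Ctrl and 3 CIA, and it covered every gene of the deposited table: of 20926 genes, 12366 had a mean level high enough to be tested. All mice were DBA/1 males with a labelled age of 7 weeks. The study gives that age for the division into groups, and the labels do not give the age at which blood was taken. The CIA mice had been given chick type II collagen with complete Freund's adjuvant near the tail root, followed by a second injection with incomplete adjuvant, whereas the Ctrl mice had no arthritis induced. The adjuvant and the collagen came together, so that their shares in a difference cannot be told apart. The third group, CIA mice exposed to terahertz radiation, entered only the scaling of the libraries and the filter on low genes.

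Circulating white cells reach the blood at different stages of life. Neutrophils are made in the bone marrow, where a precursor fills first one and then another class of granules with antimicrobial proteins before the cell matures, so granule transcripts are abundant in precursors and scarce in most mature blood neutrophils. Monocytes leave the marrow as classical, Ly6C-high cells, can become tissue macrophages or osteoclasts, and in arthritis feed the inflamed joint. Lymphocytes and NK cells circulate between blood and tissues, and plasma cells, which secrete antibody, mostly settle in marrow and mucosa.

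The deposited values were FPKM, fragments scaled by transcript length and library total. Levels below are FPKM divided by 1 factor per library (rescaled FPKM), and a fold change is a difference of mean log2(rescaled FPKM + 0.1), CIA minus Ctrl, a scale that shrinks differences between values close to 0. The number of reads behind the values is unknown. Relative depth, read from the steps between low values, was 1 to 1.10 in Ctrl and 1.01 to 1.28 in CIA, with CIA 3 the deepest. The tissue was labelled blood leukocyte, whereas the study's methods speak of total blood RNA. Alas2, which red cell precursors use to make heme, was the highest gene in all 6 libraries. It took 14.4% to 16.6% of the summed FPKM in Ctrl and 16.3% to 16.7% in CIA. The labels do not say whether a library came from 1 mouse, so the tests measure the spread between these samples. Pearson correlations across genes, which are not independent replicates, were 0.934 to 0.944 within a group and 0.923 to 0.934 between groups. The first principal component held 27.9% of the variance, with Ctrl at -47.0 to -24.5 and CIA at 32.8 to 45.3.

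A gene was called when it had an unadjusted p under 0.05 in limma and an absolute log2 fold change above 0.67, the study's own criterion for pairs of groups. This criterion was passed by 1118 genes, 9.04% of those tested. Of these, 592 were higher in CIA (4.79%) and 526 were lower (4.25%). The counts of called genes in the lists below are to be read beside these shares, since lists with few calls can lie near them. A Benjamini-Hochberg adjusted p under 0.05 was reached by 19 genes (0.154%), of which 15 were higher and 4 lower. The groups did not overlap, whatever the size of the difference, in 1454 genes that were higher in CIA (11.8%) and 1456 that were lower (11.8%), which included 1007 of the 1118 called genes. The adjusted count rests on the choice of fit more than the others do, from 3 to 474 genes over the alternatives tried. Jchain, Apoe and Tmem176b had an adjusted p under 0.05 in every one of them. Single calls were less firm than the total: of the 116 called genes named in the text, 68 passed the criterion in each of up to 16 alternatives, 10 of them other scalings, filters or models and 6 of them with 1 library left out, and 48 lost it in 1 or more.

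**Figure D1:**
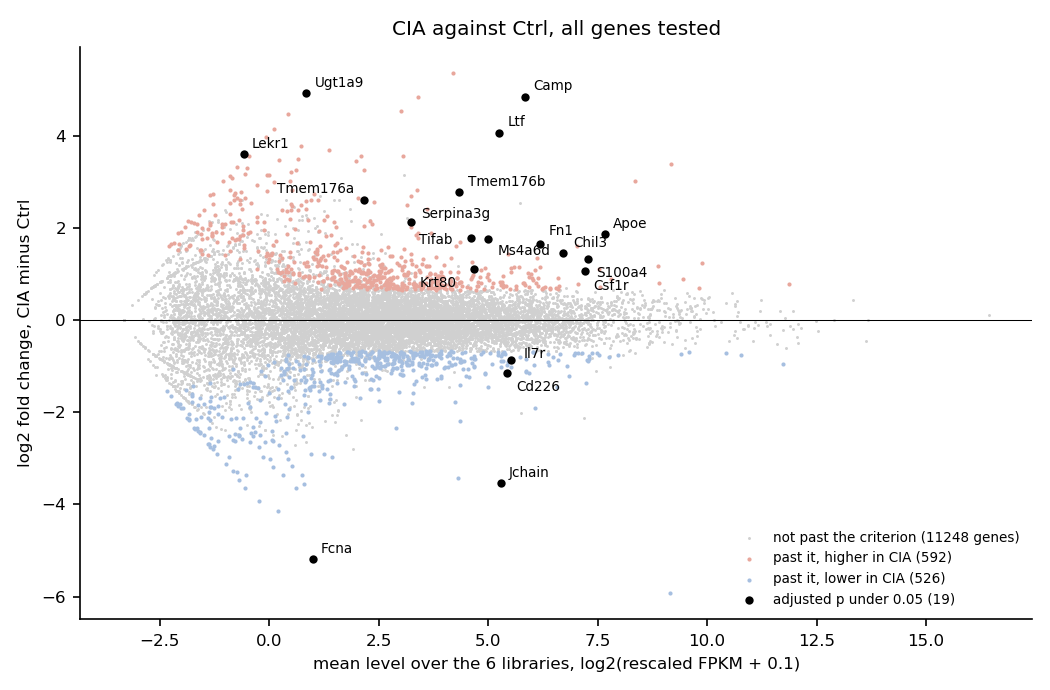
Each of the 12366 genes tested is a point, with its mean level over the 6 libraries as log2(rescaled FPKM + 0.1) on the x axis and its log2 fold change, CIA minus Ctrl, on the y axis. The 592 red and 526 blue points passed the criterion and the 19 black, named points had an adjusted p under 0.05. The fan of points on the left is made of genes near 0 in 1 group.

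The genes with an adjusted p under 0.05 were few. Listed genes of neutrophil precursor granules or of classical monocytes made up 7 of the 15 higher ones, Camp, Ltf, Chil3, Csf1r, Fn1, S100a4 and Ms4a6d, and the 4 lower genes were an antibody chain, a complement lectin and a pair of lymphocyte receptors. Jchain, which encodes the chain that joins IgA and IgM into polymers, was 71.4, 80.4 and 63.5 rescaled FPKM in Ctrl and 6.69, 5.20 and 6.45 in CIA. It fell by 3.53 on the log2 scale (SE 0.155, adjusted p = 0.000688), the smallest p of all genes tested. Apoe, a lipid carrier that macrophages secrete, was 83.9, 89.0 and 88.0 in Ctrl and 305, 308 and 342 in CIA. It rose by 1.87 (SE 0.103, adjusted p = 0.00115). For both genes the distance between the groups was many times the spread within either.

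**Figure D2:**
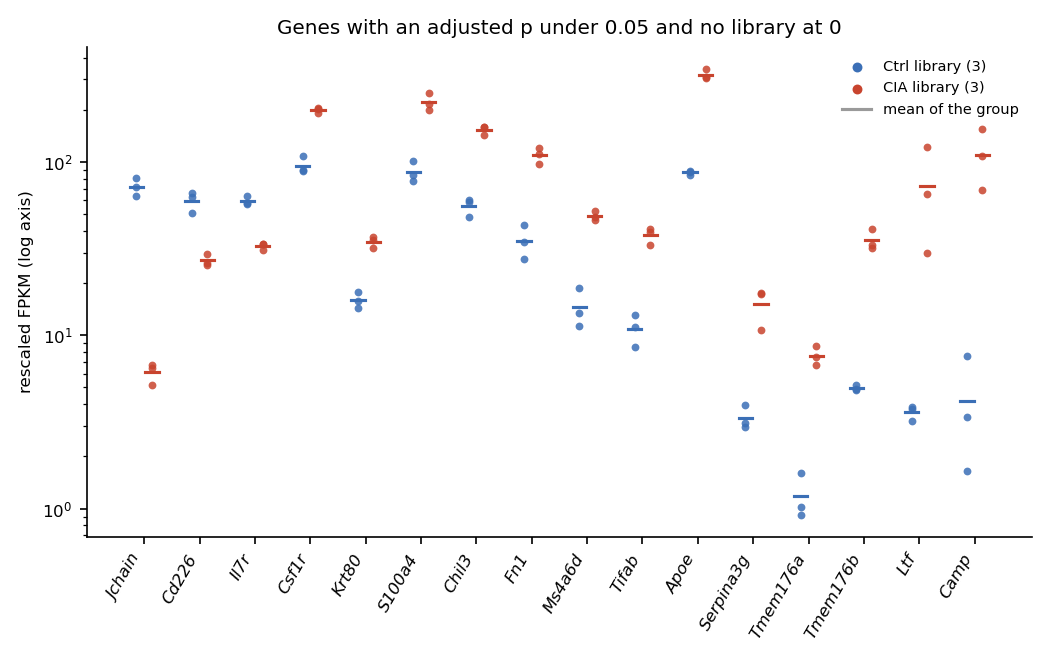
Rescaled FPKM on a log axis for the 16 genes with an adjusted p under 0.05 that had no library at 0, ordered by fold change. Points are single libraries (blue, 3 Ctrl; red, 3 CIA) and bars are group means. In none of the 16 genes did the groups overlap, from Jchain at 6.11 ± 0.803 (SD, n = 3) in CIA against 71.8 ± 8.42 in Ctrl to Camp at 110 ± 43.1 against 4.204 ± 3.08.

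Granule genes of neutrophil precursors held the largest rises among the genes with an adjusted p under 0.05 and no library at 0. Camp encodes cathelicidin, an antimicrobial peptide of the secondary granules, and Ltf encodes lactoferrin, an iron-binding protein of the same granules. Camp was 1.64, 3.36 and 7.61 rescaled FPKM in Ctrl and 68.6, 108 and 155 in CIA, a rise of 4.86 on the log2 scale (SE 0.539, adjusted p = 0.0361). Ltf was 3.19, 3.74 and 3.85 in Ctrl and 29.8, 65.7 and 122 in CIA, a rise of 4.08 (SE 0.457, adjusted p = 0.0361). Ngp, the neutrophilic granule protein, went from 70.1, 88.7 and 41.6 to 265, 562 and 938, or by 3.02 (SE 0.471, adjusted p = 0.0616). In each of these 3 genes CIA 1 was the lowest and CIA 3 the highest CIA library, and every CIA library was above every Ctrl library.

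Camp, Ngp and Ltf all lie on chromosome 9 of GRCm38, within 1195 kb of each other by GENCODE's coordinates: Camp at 109847379 to 109849617 on the minus strand, Ngp from 110419747 on the plus strand and Ltf at 111019271 to 111042767 on the plus strand. From Camp to Ltf, 19 genes were tested, of which 9 had a positive fold change. The criterion was passed by 4 higher genes, Camp, Ngp, Kif9 and Ltf, and by 2 lower ones, Als2cl and Tdgf1. Kif9, which encodes a kinesin motor of cilia, was listed at 0 in Ctrl 1 and Ctrl 2 and at 0.499 in Ctrl 3, and was 1.42, 2.50 and 1.99 in CIA. The other genes between them were not called.

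Their promoters are shown because these 3 genes moved together and stand close to each other. Each sequence is the 250 bases just before the RefSeq transcript start, read from GRCm38.p6 in the direction of the gene. The RefSeq starts lie 161 bases inside the GENCODE gene for Camp, 61 for Ngp and 21 for Ltf, so the end of each window overlaps the gene as placed above. Capitals mark matches to TTGCNNAA, the letters of a C/EBP-type site, or to GAGGAA, the letters of a PU.1-type site, each searched on both strands. C/EBP factors and PU.1 are known regulators of granule genes.

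Camp, chr9:109849457-109849706, minus strand: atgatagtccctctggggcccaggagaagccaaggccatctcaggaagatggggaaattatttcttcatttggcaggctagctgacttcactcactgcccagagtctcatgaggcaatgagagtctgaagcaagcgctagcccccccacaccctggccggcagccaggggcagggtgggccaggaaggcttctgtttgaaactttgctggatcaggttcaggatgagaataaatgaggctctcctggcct

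Ngp, chr9:110419558-110419807, plus strand: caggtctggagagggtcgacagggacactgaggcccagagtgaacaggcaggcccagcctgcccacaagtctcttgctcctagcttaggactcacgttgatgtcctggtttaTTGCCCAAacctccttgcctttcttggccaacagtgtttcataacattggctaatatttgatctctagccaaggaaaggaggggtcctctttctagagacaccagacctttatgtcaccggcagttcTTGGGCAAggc

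Ltf, chr9:111019042-111019291, plus strand: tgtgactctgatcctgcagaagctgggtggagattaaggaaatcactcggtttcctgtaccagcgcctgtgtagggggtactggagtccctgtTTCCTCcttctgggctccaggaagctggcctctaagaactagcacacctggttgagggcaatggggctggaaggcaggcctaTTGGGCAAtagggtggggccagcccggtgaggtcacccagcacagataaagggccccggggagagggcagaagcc

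The Ngp window held 2 C/EBP-type matches, TTGCCCAA starting 138 bases before the transcript start and its reverse complement TTGGGCAA starting 11 bases before it. The Ltf window held 1 such match, TTGGGCAA starting 75 bases before the start, and 1 PU.1-type match on the minus strand. No letters of either kind occurred in the Camp window, nor in the 250 bases before Chil3. Of the 32851 promoters in the same RefSeq table, 9.56% held a C/EBP-type match and 23.3% a PU.1-type match in this window. The matches describe letters, and binding was not measured.

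Not all granule genes rose. Of the 19 tested genes of a list of precursor granule genes, 6 were called higher and 2 lower, with a median of 1.03 beside -0.00506 over all genes tested. The median was 0.675 without Ctrl 3, 0.614 with a mean of at least 1 and 0.418 with a pseudocount of 1, and the higher calls were 4 without CIA 3. Chil3, a chitinase-like protein stored by neutrophil precursors and also made by monocytes, was 60.6, 58.7 and 47.9 in Ctrl and 158, 143 and 159 in CIA (rise of 1.47, SE 0.126, adjusted p = 0.0194). Stfa1, a cysteine protease inhibitor of the stefin A group, rose by 0.80, a call lost in 5 of 6 fits without 1 library, and was 12.4, 7.26 and 5.59 in Ctrl against 13.3, 13.8 and 14.6 in CIA. Cebpe, the transcription factor that late granule genes need, was listed at 0 in Ctrl 1, was 0.185 and 0.905 in the other Ctrl libraries and was 1.79, 0.928 and 1.13 in CIA, and its call was also lost in 5 of 6 fits without 1 library. The primary granule genes of the earliest precursors stayed close to 0: Mpo, myeloperoxidase, was listed at 0 in all Ctrl libraries and in CIA 1 and was 0.317 and 0.812 in CIA 2 and CIA 3, and Elane, neutrophil elastase, was at most 0.236 in any library.

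Other genes of the same list were called lower or overlapped between groups. Mmp8, the neutrophil collagenase, was 238, 275 and 135 in Ctrl and 58.7, 91.5 and 98.6 in CIA and fell by 1.35 (SE 0.306, adjusted p = 0.105). Olfm4, a granule glycoprotein found in a subset of neutrophils, fell by 0.95, with 60.3, 52.8 and 23.1 in Ctrl and 20.0, 17.8 and 28.4 in CIA, so that Ctrl 3 lay within the CIA range. The Olfm4 call was lost in 7 of 16 alternatives, and the Mmp8 call in none. Lcn2, a granule protein that traps bacterial iron carriers, was 333, 413 and 243 in Ctrl and 182, 316 and 261 in CIA and was not called. Cd177, Ly6g and Itgb2l, surface proteins of neutrophils, were not called either. Genes of the same cell and of related granules thus passed the criterion in opposite directions.

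**Figure D3:**
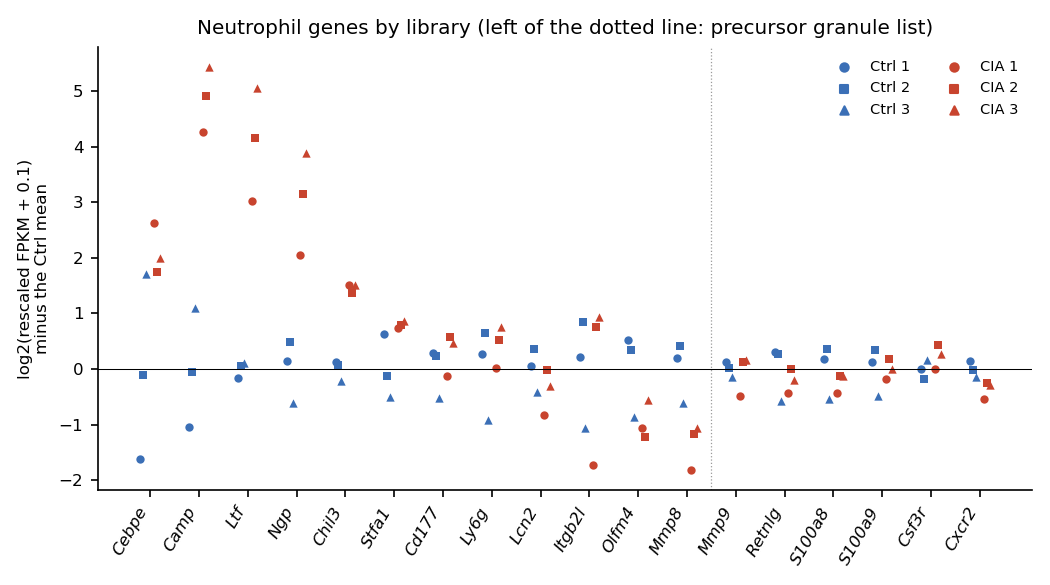
For 18 neutrophil genes, each library's log2(rescaled FPKM + 0.1) minus the mean of the 3 Ctrl libraries (circle, square and triangle are replicates 1, 2 and 3; blue Ctrl, red CIA). Camp, Ltf, Ngp and Chil3 lie above all Ctrl libraries, Mmp8 lies below them, and the genes of mature neutrophils right of the dotted line stay near 0 in both groups.

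Genes of mature neutrophils showed little difference. Of 18 tested, 1 was called higher and 1 lower, with a median of -0.208. S100a8 and S100a9, the calcium-binding proteins that fill the cytoplasm of mature neutrophils, had differences of -0.23 and 0.0016, and Csf3r, the receptor for the growth factor G-CSF, had 0.23. Il1r2, a decoy receptor for interleukin-1, was the lower one, at 22.5, 26.9 and 17.4 in Ctrl and 8.82, 15.98 and 9.07 in CIA (fall of 1.01, SE 0.273, adjusted p = 0.152). Ccrl2, a chemerin-binding receptor, was the higher one and rose by 1.40, a call lost without any 1 of the CIA libraries. In bulk blood, more cells of a type and more RNA per cell cannot be told apart, here or for any list that follows. FPKM are relative to the library total, so a lower list does not give a lower number of cells. The study counted more lymphocytes, neutrophils, monocytes and total white cells in the blood of CIA than of Ctrl mice.

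Every call among classical monocyte genes was higher in CIA. Of 16 tested, 9 were called higher and 0 lower, with a median of 0.735, and 5 of them had an adjusted p under 0.05. The higher calls numbered 8 to 10 over the alternatives. Lists in this report share members, so their calls are not separate results. Chil3 is also in the precursor granule list and Ms4a6d and Ms4a4c are in the Ms4a family. Ccr2 is also among the chemokine receptors and Csf1r among the osteoclast precursor genes. Csf1r, the receptor for the growth factor that monocytes and macrophages depend on, was 88.3, 89.3 and 108 in Ctrl and 192, 204 and 201 in CIA (rise of 1.07, SE 0.117, adjusted p = 0.0361). Fn1, fibronectin, went from 34.4, 27.4 and 43.0 to 121, 97.3 and 111. The CIA libraries stood close together and well above Ctrl in both.

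S100a4, a calcium-binding protein of motile cells, rose by 1.34 (SE 0.142, adjusted p = 0.0361), and Ms4a6d, a membrane protein of myeloid cells, by 1.77 (SE 0.192, adjusted p = 0.0361). Ccr2, the chemokine receptor that takes monocytes out of the marrow, was 83.3, 60.2 and 56.5 in Ctrl and 127, 92.9 and 162 in CIA, a rise of 0.92 (SE 0.234, adjusted p = 0.135). Lyz2, lysozyme, rose by 0.80 from 2812, 2809 and 2529 to 4792, 4436 and 4916. Ly6c2, the surface antigen that defines these monocytes, had a difference of 0.45 and was not called, although its groups did not overlap. Only Ly6c1 among the 16 had a negative difference, of -0.33.

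Patrolling monocytes crawl along vessel walls. Of 14 of their genes tested, with a median of 0.288, 1 was called, Nr4a1, the nuclear receptor they need for survival, with 3.45, 2.33 and 4.84 in Ctrl and 6.43, 4.51 and 7.71 in CIA. This call was lost in 8 of 16 alternatives, among them FPKM as deposited and the fits without Ctrl 1, Ctrl 2, CIA 1 or CIA 3, and the median was 0.507 without Ctrl 3 and 0.473 without CIA 2. Cx3cr1, their chemokine receptor, was 3.86, 14.5 and 21.7 in Ctrl and 29.0, 13.7 and 36.3 in CIA and overlapped between groups. Cebpb, a C/EBP factor of monocytes, was 102 and 106 in CIA 1 and CIA 3 but 4.56 in CIA 2, against 59.1, 58.0 and 46.9 in Ctrl, so that its difference was -0.56 with CIA 2 and 0.93 without it. The difference between the classical and patrolling lists themselves was not tested.

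A gene pair on chromosome 6 rose together. Tmem176b and Tmem176a encode related membrane proteins of monocytes and dendritic cells, and their annotated bodies overlap (Tmem176b at 48833818 to 48841496 on the minus strand, Tmem176a at 48840919 to 48847071 on the plus strand). Tmem176b was 4.84, 4.90 and 5.20 in Ctrl and 31.7, 33.2 and 40.9 in CIA (rise of 2.79, SE 0.150, adjusted p = 0.00115). Tmem176a was 1.02, 0.921 and 1.61 in Ctrl and 7.47, 6.77 and 8.67 in CIA (rise of 2.62, SE 0.290, adjusted p = 0.0361). Because the genes overlap and the counting is not known to use strand, part of their reads could be shared.

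Right next to them on chromosome 6 lie the Gimap genes, GTPases that keep lymphocytes alive. Of the 8 tested, 7 had a negative difference and 1, Gimap7, was called, with 26.2, 24.0 and 37.1 in Ctrl and 14.6, 11.7 and 14.7 in CIA (fall of 1.06, SE 0.197, adjusted p = 0.0700). Their median was -0.506. From Gimap8 to Tmem176a, a stretch of 200 kb, 10 genes were tested, and the myeloid pair and Gimap7 were the 3 called.

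Genes of lysosomes and lipid handling, which macrophages use heavily, were also called in 1 direction. Of 27 tested, 9 were called higher and 0 lower, with a median of 0.531, and 23 had a positive difference. The higher calls numbered 8 to 11 over the alternatives. Ctss, cathepsin S, which cuts the invariant chain of MHC class II, was 114, 122 and 109 in Ctrl and 284, 206 and 266 in CIA (rise of 1.12, SE 0.145, adjusted p = 0.0501). Grn, progranulin, was 16.1, 18.3 and 16.2 in Ctrl and 30.4, 36.5 and 33.7 in CIA. Trem2, a lipid-sensing receptor of macrophages, was 1.47, 0.810 and 2.16 in Ctrl and 6.92, 10.02 and 9.64 in CIA (rise of 2.58, SE 0.373, adjusted p = 0.0566). In each of these the groups stood apart, although their adjusted p lay just above 0.05.

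Ctsh and Psap, a further lysosomal protease and the precursor of the saposins that help break down sphingolipids, rose by 0.95 and 0.81. Cd68, a lysosomal membrane glycoprotein used as a macrophage marker, rose by 1.01, and Ctsa, a lysosomal enzyme, by 1.06. The Ms4a family of membrane proteins, to which Ms4a6d belongs, had 4 of 12 tested members called higher and 0 lower, with a median of 0.674 that was 0.438 without CIA 3 and 0.330 with a pseudocount of 1. Ms4a8a, Ms4a4a and Ms4a4c were the others, with rises of 1.49, 1.22 and 0.74, whereas Ms4a4b, a member found in T cells, had a difference of -0.60 and Ms4a1, the B cell antigen CD20, had -0.079.

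Antigen presentation by MHC class II, the step that starts T cell help against collagen, had 6 of 13 tested genes called higher and 1 lower, with a median of 0.627. Ctss is 1 of the 6. The higher calls fell to 2 without Ctrl 1 and without CIA 2. H2-Ab1, the beta chain of the I-A molecule, was 79.4, 101 and 108 in Ctrl and 174, 199 and 131 in CIA (rise of 0.79, SE 0.190, adjusted p = 0.117). H2-DMb1 and H2-DMb2, which help load peptides, rose by 0.83 each, and H2-Oa and H2-Eb1 by 0.77 and 0.71, calls that were lost in 6 and 9 of 16 alternatives. Cd80, a costimulatory ligand for T cells, was 10.02, 5.55 and 6.28 in Ctrl and 2.17, 2.73 and 3.81 in CIA and fell by 1.29. H2-Aa, the alpha chain of I-A, and Cd74, the invariant chain, had differences of 0.62 and 0.59 and were not called, and Cd86, the partner of Cd80, overlapped between groups.

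Receptors for antibody Fc parts showed 3 of 13 tested genes called higher and 0 lower, with a median of 0.492. Fcgr1, the high-affinity receptor for IgG, was 4.69, 1.61 and 1.71 in Ctrl and 18.5, 12.3 and 17.5 in CIA (rise of 2.69, SE 0.417, adjusted p = 0.0616). Fcgrt, the neonatal receptor that protects IgG from breakdown, was 3.32, 3.42 and 2.47 in Ctrl and 8.86, 6.96 and 7.76 in CIA (rise of 1.33). Fcmr, the receptor for IgM, rose by 0.70, a call lost without Ctrl 1 and without CIA 2. Fcgr3, a low-affinity IgG receptor, was 171, 174 and 146 in Ctrl and 169, 190 and 167 in CIA and was not called.

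Complement, which antibody on cartilage sets off, was mixed. Of 18 genes tested, 2 were called higher and 1 lower, with a median of 0.137. Cfb, factor B of the alternative pathway, was listed at 0 in Ctrl 2, was 2.25 and 1.66 in the other Ctrl libraries and was 10.7, 6.33 and 5.25 in CIA. Its call was lost without any 1 of the CIA libraries. C3, the central component, was 45.5, 46.7 and 46.7 in Ctrl and 66.7, 71.6 and 67.2 in CIA, a difference of 0.56 that did not reach the size of the criterion although the libraries of a group lay close together.

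Cd59a, which shields cells from complement lysis and is carried by red cells and neutrophils, fell by 1.21, from 194, 172 and 114 to 98.4, 47.0 and 66.4. Fcna, ficolin-A, a lectin that starts the complement cascade on sugars and is not in the list, was 5.77, 2.84 and 2.73 in Ctrl and was listed at 0 in all 3 CIA libraries (adjusted p = 0.0214). Fold changes against a group listed at 0 are not given, since a 0 in such a file can be a failed estimate. Ugt1a9 and Lekr1, listed at 0 in all Ctrl libraries, were the reverse case: Ugt1a9, an enzyme that couples sugar acids to drugs, was 1.40, 5.37 and 3.39 in CIA, and Lekr1 was 1.11, 1.04 and 1.24. Ugt1a9 shares its later exons with the other genes of its locus, so its share of their reads is uncertain.

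Of the other genes with an adjusted p under 0.05, 3 stood in no list and share no known family. Tifab, an inhibitor of the signalling adaptor TIFA, was 11.2, 8.51 and 13.1 in Ctrl and 39.3, 33.0 and 40.9 in CIA (rise of 1.79). Serpina3g, an intracellular protease inhibitor that interferon can induce, was 2.94, 3.11 and 3.94 in Ctrl and 17.6, 17.3 and 10.7 in CIA (rise of 2.13). Krt80, a keratin, was 15.7, 14.4 and 17.7 in Ctrl and 32.1, 35.3 and 36.8 in CIA (rise of 1.12). Their groups did not overlap.

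Genes of T cells had mostly small negative differences. Of 18 tested, 17 had a negative difference, 2 were called lower and 0 higher, with a median of -0.324. Il7r, the receptor for the survival factor interleukin-7, was 57.5, 63.8 and 57.8 in Ctrl and 31.0, 33.5 and 33.4 in CIA and fell by 0.87 (SE 0.105, adjusted p = 0.0461). Cd28, the costimulatory receptor that binds CD80, was 15.3, 17.4 and 15.8 in Ctrl and 7.32, 5.91 and 7.99 in CIA and fell by 1.19 (SE 0.167, adjusted p = 0.0554). Cd3e, part of the T cell receptor complex and a marker of all T cells, had a difference of -0.25. Whether the falls of Il7r and Cd28 differed from that of Cd3e was not tested.

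Among T helper and regulatory genes, 24 were tested and 2 were called higher and 1 lower, with a median of -0.034, and no higher call was left without Ctrl 2. Foxp3, the transcription factor of regulatory T cells, was 3.12, 1.94 and 2.64 in Ctrl and 3.57, 5.30 and 5.50 in CIA (rise of 0.87, SE 0.292, adjusted p = 0.206). The Foxp3 call was lost without Ctrl 2, without CIA 2 and without CIA 3. Other genes of the list did not rise with it or were not called. Ctla4 had a difference of -0.71, with every CIA library below every Ctrl library. Ikzf2 had -0.18 and Il2ra 0.43, and both overlapped between groups. Il23r, the receptor for the Th17-sustaining interleukin-23, was 0.687 in Ctrl 1, was listed at 0 in the other Ctrl libraries and was 3.12, 0.857 and 1.24 in CIA. Cd40lg, the ligand through which T cells help B cells, was 2.06, 2.13 and 1.78 in Ctrl and 0.473, 0.786 and 1.10 in CIA and fell by 1.30 (SE 0.389, adjusted p = 0.176). Trac and the Trbc genes, which encode the constant parts of the T cell receptor, were not analysed here.

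Cytotoxic and NK cell genes had the lowest median of the circulating cells with more than 10 genes tested, at -0.817, with 7 of 17 called lower and 0 higher. Without CIA 2 the median was -0.447 and 3 were called lower. Prf1, the pore-forming perforin, was 41.9, 53.6 and 60.5 in Ctrl and 37.5, 23.9 and 18.7 in CIA (fall of 1.00, adjusted p = 0.147). Gzma and Gzmb, the granzymes it lets into target cells, fell by 1.11 and 0.70. Gzma was 77.7, 62.6 and 91.2 in Ctrl and 56.3, 17.8 and 43.5 in CIA. In CIA, the second library was the lowest for Gzma and the third for Prf1.

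The Klr family holds the lectin-like receptors by which NK cells read MHC class I. Of 20 of its genes tested, 5 were called lower and 0 higher, with a median of -0.967. Klrd1 and Klre1 are counted among the calls of both this family and the NK cell list. Klra3, an inhibitory Ly49 receptor, was 13.3, 15.0 and 14.6 in Ctrl and 3.95, 3.96 and 6.76 in CIA (fall of 1.57, SE 0.241, adjusted p = 0.0610). Klrd1, the CD94 chain of the NKG2 receptors, was 10.8, 12.3 and 11.7 in Ctrl and 6.28, 6.49 and 4.95 in CIA, and Klre1, an NK receptor partner, fell by 2.90 from 2.97, 4.10 and 4.84 to 1.40, 0.199 and 0.246. Ly49 genes are close copies of each other, so the split of reads among them is uncertain. Cd226, the activating receptor DNAM-1 of NK and T cells and of platelets, which is in neither list, was 62.5, 65.9 and 50.4 in Ctrl and 29.4, 25.5 and 26.1 in CIA and fell by 1.13 (SE 0.139, adjusted p = 0.0472).

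The few calls among B cell genes were higher and those among plasma cell genes lower. Of 14 B cell genes tested, 2 were called higher and 0 lower, with a median of 0.194, and they were Fcmr and Blk, a kinase of the B cell receptor, with rises of 0.70 and 0.81. Neither call was left without Ctrl 1 or without CIA 2. Cd79a, part of the receptor complex, overlapped between groups, with a difference of 0.22. Of 8 plasma cell genes tested, 4 were called lower and 0 higher, with a median of -0.864. The median was -0.44 with a pseudocount of 1, and 2 were called lower without Ctrl 2 and without Ctrl 3. Besides Jchain these were Derl3, which clears misfolded proteins from the endoplasmic reticulum, with 2.23, 1.62 and 2.70 in Ctrl and 0.154, 0.448 and 0.115 in CIA, Mzb1, a chaperone for antibody chains, with a fall of 0.92, and Tnfrsf17, the survival receptor BCMA.

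Tnfrsf17 was 0.0997, 0.802 and 0.694 in Ctrl, was listed at 0 in CIA 1 and CIA 2 and was 0.0744 in CIA 3, a call lost in 5 of 15 alternatives. Xbp1, the transcription factor that builds up the secretory apparatus, was the exception in this list, at 25.2, 32.8 and 27.1 in Ctrl and 42.5, 35.9 and 40.6 in CIA, a difference of 0.49 that was not called. Bhlha15, the secretory-cell factor MIST1, which is not in the list, was 1.62, 2.10 and 2.24 in Ctrl, 1.58 in CIA 1 and listed at 0 in CIA 2 and CIA 3. The constant-region genes of antibodies were not analysed here.

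**Figure D4:**
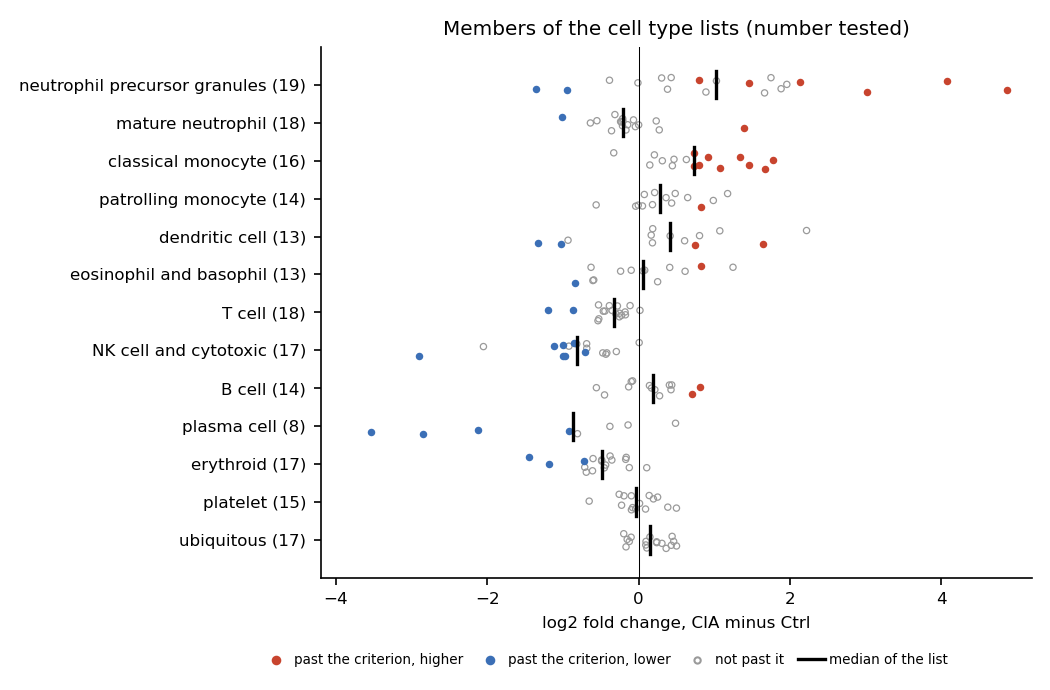
Log2 fold change, CIA minus Ctrl, of every tested member of 13 cell type lists, with the number tested in brackets. Filled points passed the criterion (red higher, blue lower), open points did not, and the black bar is the median of the list, from 1.03 for precursor granules and 0.735 for classical monocytes to -0.817 for NK cells and -0.864 for plasma cells. Vertical scatter within a row has no meaning.

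Genes of the remaining blood cells had few calls. Of 13 dendritic cell genes, 2 were called higher and 2 lower, with a median of 0.417. Flt3, the receptor for their growth factor, rose by 1.65 from 0.767, 0.260 and 0.262 to 1.46, 0.893 and 2.14, Ly6d, a surface antigen of lymphoid precursors, rose by 0.74, and Ccr9 and Xcr1, chemokine receptors of separate subsets, fell by 1.33 and 1.02. No higher call was left without Ctrl 2, and the Xcr1 call was lost in 6 of 15 alternatives. A positive difference was found in 10 of the 13 genes and a negative one in 3. Clec9a and Batf3 had positive differences of 0.61 and 1.07, were not called and overlapped between groups. Whether any dendritic cell subset changed was not tested. Among 13 eosinophil and basophil genes, with a median of 0.0579, Cpa3, a mast cell and basophil protease, fell by 0.84 and Mcpt8, a basophil protease, rose by 0.83, a call lost in 7 of 16 alternatives.

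None of 15 platelet genes was called, with a median of -0.0387, and Pf4, platelet factor 4, was 1103, 1270 and 1016 in Ctrl and 1175, 1380 and 903 in CIA. An unadjusted p under 0.05 in limma was found for 2 of them, Gp6 and Gp1bb, with opposite signs. Of 17 erythroid genes, 3 were called lower and 0 higher, with a median of -0.487 and 16 negative differences, and 1 was called without Ctrl 1 and without Ctrl 2. Klf1, a master factor of red cell precursors, was 2.37, 2.01 and 1.505 in Ctrl and 0.654, 0.574 and 0.714 in CIA (fall of 1.45), whereas Alas2 had a difference of 0.11. The whole list took 18.7% to 22.6% of the summed FPKM in Ctrl and 19.5% to 20.9% in CIA. Of 17 genes used by all cells, none was called, with a median of 0.15, and 3 of them, Eef2, Gapdh and Sdha, had an unadjusted p under 0.05 in limma.

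The lists of inflammatory signalling genes held a few called genes each. Of 28 interferon-stimulated genes, 6 were called higher and 0 lower, with a median of 0.336. Without CIA 1, 2 were called higher and the median was 0.175, and without CIA 3 it was 0.621. Oas1a, an antiviral RNA sensor, rose by 1.55, Zbp1, a nucleic acid sensor, by 0.95, and Ifi44, Oasl1 and Oasl2 by 0.76, 0.95 and 0.80. The calls of Ifi44, Oasl1 and Oasl2 were lost in 5, 7 and 5 of 16 alternatives, those of Oas1a and Zbp1 in none. Oasl1 and Oasl2 overlapped between groups. Ifit2, of the same class, went the other way with a difference of -0.60, at 41.4, 42.9 and 41.0 in Ctrl and 27.2, 29.9 and 25.6 in CIA.

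Among 20 NF-kB and feedback genes, with a median of 0.245, 2 were called higher and 0 lower, both inhibitors that hold the factor in the cytoplasm, Nfkbib and Nfkbie, with rises of 0.90 and 0.83. The Nfkbie call was lost without CIA 2. Rela, Nfkb2 and Tnfrsf1b were also higher without overlap, with differences of 0.66, 0.64 and 0.50 that fell short of the criterion's size. In this list 8 genes were higher without overlap and 3 lower, beside 11.8% in each direction over all genes tested. Of 26 genes of Toll-like receptors and the inflammasome, 1 was called, Tlr8, a sensor of single-stranded RNA, which fell by 0.73 from 48.3, 48.0 and 51.0 to 26.8, 26.3 and 36.7 and was not called without CIA 1 or without CIA 2. Its list had a median of -0.0364. TGF-beta signalling, with 16 tested and a median of -0.108, had Smad7, an inhibitor of the pathway, called lower by 0.84 (29.6, 22.3 and 27.1 in Ctrl and 13.5, 15.7 and 14.8 in CIA) and Acvrl1, a type I receptor, called higher by 1.03 but not in 6 of 16 alternatives. Tgfb1, the ligand, was 27.4, 25.5 and 28.1 in Ctrl and 40.7, 44.6 and 39.2 in CIA, a difference of 0.62 just short of the criterion.

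Of 23 chemokine receptor genes, 3 were called higher and 2 lower, with a median of 0.125: Ccr2, Ccrl2 and Cxcr6 were higher and Ccr9 and Xcr1 lower. The Ccr2 and Ccr9 calls were lost in no alternative, that of Cxcr6 in 10 of 16, and without CIA 2 or CIA 3 a single gene remained in each direction. Ccr1, a receptor of neutrophils and monocytes, had a difference of -0.50 without overlap, at 262, 216 and 220 in Ctrl and 157, 160 and 176 in CIA, and Cxcr2, which brings neutrophils to tissue, had -0.36. Osteoclast precursor genes were split, with Csf1r and Trem2 called higher and Dcstamp and Atp6v0d2 called lower among 16 tested. Dcstamp, which osteoclast precursors need to fuse, was 4.94, 6.57 and 4.51 in Ctrl and 1.56, 2.49 and 2.42 in CIA (fall of 1.28), and Atp6v0d2, a proton pump subunit of the same step, was listed at 0 in Ctrl 1 and all CIA libraries and was 1.58 and 1.20 in the other Ctrl libraries, a call lost in 7 of 15 alternatives.

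The study also assayed proteins in serum, and the transcripts of those proteins in blood cells were looked at one by one. Of the proteins taken here, the study reported all but C5a, encoded by Hc, as higher in CIA serum, TNF-alpha included. It reported C5a as lower. RNA in blood cells and protein in serum are unlike measures. Of 11 tested, with a median of -0.266, 1 was called, Tnf, which was lower in CIA, with 1.98, 1.89 and 2.41 in Ctrl and 0.988, 1.11 and 1.45 in CIA (fall of 0.78, SE 0.316, adjusted p = 0.268). The Tnf call was lost in 12 of 16 alternatives, among them FPKM as deposited, factors over the 6 libraries, the replicate block and every fit without 1 library except that without CIA 3. Il1b, interleukin-1 beta, was 359, 259 and 350 in Ctrl and 379, 370 and 409 in CIA, a difference of 0.27 that was not called, and Il1rn, its natural antagonist, had -0.27. Il6 was at most 0.446 in any library. Il17a and Cxcl1 were listed at 0 in all 6, and Cxcl13 was at 0.23 in Ctrl 1 and listed at 0 in the others. Il16, Csf1, Trem1, Cxcl12, Timp1, Hc and Il1a were not called, and of these Il16, Csf1 and Trem1 were above 40 rescaled FPKM in every library.

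**Figure D5:**
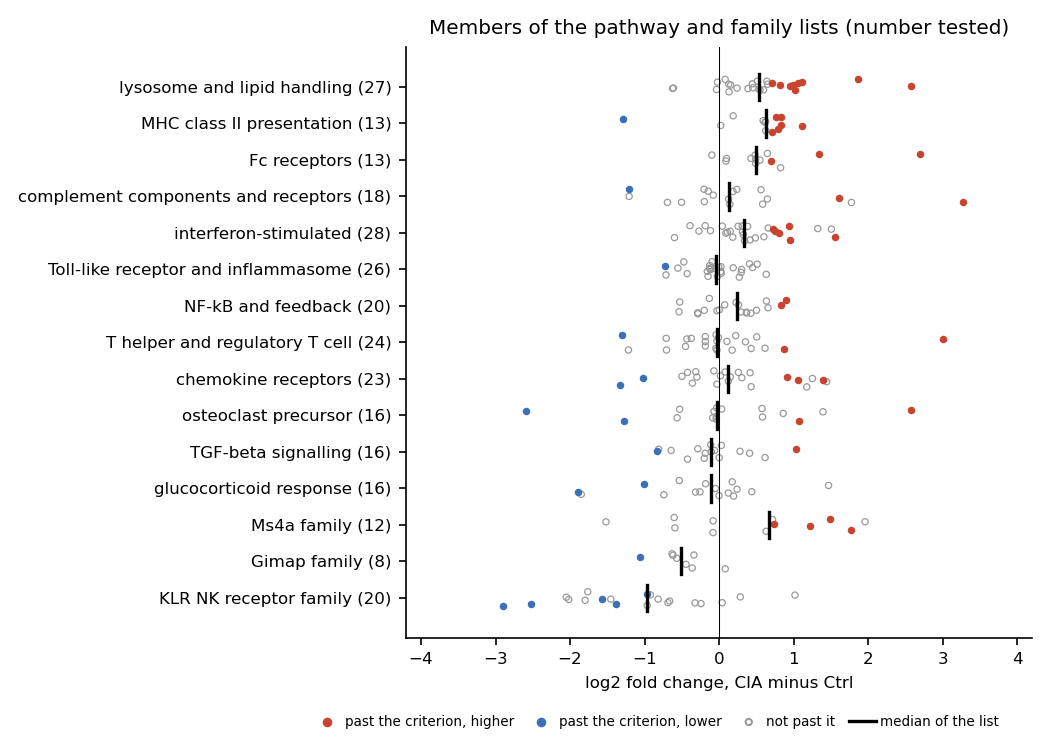
Log2 fold change, CIA minus Ctrl, of every tested member of 15 pathway and family lists, drawn as for the cell types. The medians run from 0.674 for the Ms4a family and 0.627 for MHC class II to -0.506 for the Gimap family and -0.967 for the Klr family, while those of Toll-like receptors, T helper cells and osteoclast precursors lie within 0.05 of 0.

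Beyond the lists, the largest changes without overlap among called genes with a mean of at least 1 were mostly of low genes with libraries listed at 0. Besides those already given, the 10 higher were completed by Guca1a, Rbfox2, Gstm4, Steap3, Eef1akmt1 and Spaca9. Steap3, a reductase of the endosomal iron cycle, was 3.50 and 3.69 in Ctrl 1 and Ctrl 3, was listed at 0 in Ctrl 2 and was 19.7, 7.90 and 14.5 in CIA. Guca1a was listed at 0 in all Ctrl libraries and was 0.894, 3.05 and 3.51 in CIA. The 10 lower were completed by Chac1, Mal, Tcim, Prss8, Hspb1 and Gm42372, each with at least 1 CIA library listed at 0. Mal, a membrane protein of T cells and myelin, was 2.61, 2.02 and 4.46 in Ctrl and 0.483, 0 and 0.181 in CIA, and Chac1, an enzyme that degrades glutathione, was 3.96, 0.667 and 1.69 in Ctrl and was listed at 0 in CIA.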

How the data were processed

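Blood RNA labelled as leukocyte RNA was sequenced in paired-end mode on an Illumina HiSeq instrument. What the authors deposited is a table of FPKM for 20926 gene symbols, with a column for each library. The submitters' processing notes name bcl2fastq 2.0, HISAT2, StringTie, DESeq2 and the build mm10, with no role or order; the annotation, the strand setting and the filters are not given in the sources used here. Groups were taken from the labels. The number of columns not tied to a sample was 0.

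Each column was divided by 1 median-of-ratios factor (0.847 to 1.06 in Ctrl and 0.909 to 0.992 in CIA) taken from the 10312 genes that no library lists at 0. Genes whose rescaled FPKM averaged 0.1 or more in the 9 libraries, 12366 in all, were tested as log2(rescaled FPKM + 0.1) on the 6 libraries in limma 3.58.1, by lmFit followed by eBayes with an intensity trend, in R 4.3.3. With 3 libraries against 3, an exact permutation test of a single gene cannot go below a p of 0.1, so the model across all genes was used. A call needed both an unadjusted p below 0.05 and a log2 fold change larger than 0.67 in size, and Benjamini-Hochberg adjusted p were given beside it. The fit was tested on simulated data.

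The comparison, the gene lists and the tests were chosen with earlier results of these data known. The genes named are those with an adjusted p under 0.05, the 10 higher and the 10 lower with the largest change among called genes with a mean of at least 1 and no overlap, up to 4 tested members per list with the smallest p together with its defining genes, and the genes of the serum proteins assayed. Als2cl, Tdgf1, Rps27, Rps27rt, Cebpb, Crispld2, Cybb, Lrp1 and Bcl2 were named after their values were seen. So were Ctla4, Ikzf2, Il2ra, Clec9a and Batf3, whose differences were not followed through the alternatives. Of the symbols, 20514 matched GENCODE genes on GRCm38, which gave the coordinates. Promoters are RefSeq's on GRCm38.p6. Figures were drawn with matplotlib 3.10.9. The alternatives tried were other scalings, a pseudocount of 1, other filters, no trend, all 9 libraries in a fit, the replicate block, a correction for GC content and leaving out each library. Some called members of the lists are counted but not reported here by name.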

Additional observations from a re-analysis of the deposited data

How the results depend on the processing

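The number of genes past the criterion was 816 to 1345 under the scalings, pseudocount, filters, variance model, samples and GC correction tried and 966 to 1261 when 1 library was left out. Requiring an adjusted p under 0.05 with the same fold change left 19. The count of genes with an adjusted p under 0.05, 19 as reported, was the unstable one. It was 8 with FPKM as deposited, 8 with the library sum without the erythroid list, 120 with factors over the 6 libraries, 48 with a pseudocount of 1, 167 with a mean of at least 1, 110 with no filter, 474 with all 9 libraries in a fit, 64 after GC correction and 4 with the replicate block, and it lay between 3 and 11 when 1 library was left out, with any of the 6. The number of genes tested was 9748 with a mean of at least 1 and 13869 with no filter. What caused the shifts of this count was not tested. Of the 19 genes, Apoe, Jchain and Tmem176b kept an adjusted p under 0.05 in every alternative, with at most 0.0336. The other 16 lost it in at least 5 of the 6 fits without 1 library. Of the 116 named genes past the criterion, 48 lost it in 1 or more alternatives, 15 of these only when 1 library was left out, and 15 lost it in 6 or more. None of the 116 changed sign. Among uncalled ones, sign changed for Itgb2l (-0.0084 as reported, 0.022 with FPKM as deposited, 0.0076 with a pseudocount of 1), Alas2 (-0.021 after GC correction), Ms4a1 (0.17 after GC correction), Pf4 (-0.029 after GC correction, -0.0057 with the library sum without the erythroid list) and S100a9 (-0.018 with that sum). Without 1 library, the differences ranged from -0.041 to 0.25 for Alas2, -0.065 to 0.49 for Cd86, -1.32 to 0.93 for Cebpb, -1.33 to 0.58 for Hc, -1.32 to 1.43 for Il1a, -0.54 to 0.85 for Itgb2l, -0.03 to 0.75 for Ly6g, -0.17 to 0.0098 for Ms4a1, -0.13 to 0.18 for Pf4 and -0.24 to 0.18 for S100a9. The cause was not tested.

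The same replicate numbers in the 2 groups share only a number: deviations from the group means correlated between -0.0051 and 0.0087 in same-numbered pairs. With the replicate block the criterion was passed by 1073 genes, of which 965 were among the 1118. Which direction had more calls depended on the scaling. Of the called genes, 53.0% were higher as reported, 57.5% with FPKM as deposited and 48.3% with the library sum without the erythroid list. Leaving out CIA 1, CIA 3 or CIA 2 gave 46.9%, 48.2% and 51.9%. Of 35 list medians, 30 kept their sign under all alternatives. The exceptions were those of eosinophils and basophils, platelets, Toll-like receptors, T helper cells and osteoclast precursors, all within 0.06 of 0. Depth is unknown, so the counting error of genes near 0 cannot be given.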

Other observations

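Housekeeping machinery had small positive differences in many genes and few calls. Over all genes tested, 4.79% were called higher and 4.25% lower, and the calls of the respiratory chain list were near that share. Of 82 cytosolic ribosomal protein genes tested, 77 had a positive difference and the median was 0.247, but 1 was called higher, Rpl7l1, and 1 lower, Rps27. Of 77 mitochondrial ribosomal protein genes, 6 were called higher and 0 lower (median 0.234; 2 called higher with a pseudocount of 1), with Mrpl52 at 7.76, 8.50 and 12.95 rescaled FPKM in Ctrl and 20.8, 22.8 and 22.5 in CIA. Of 78 respiratory chain genes, 3 were called higher and 0 lower (median 0.232), Uqcrc1, Ndufs3 and Ndufs8, and 1 was called after GC correction. The proteasome, which cuts proteins into peptides for presentation, had 4 of 37 genes called higher and 0 lower (median 0.228), with Psmd3 at 8.75, 11.95 and 11.2 in Ctrl and 20.8, 18.9 and 21.8 in CIA. Glycolysis, with 20 genes tested, had none called at the criterion in limma, and its median was 0.248. The median of genes used by all cells was 0.15 in the same direction, beside -0.00506 over all genes. Of 30 cell cycle genes, 1 was called, Ccne2, which was lower in CIA and lost its call in 7 of 15 alternatives, with a median of -0.215.

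Among 16 genes of the glucocorticoid response, the receptor gene Nr3c1 included, 2 were called lower and 0 higher, Fkbp5 and Il1r2, with a median of -0.114. Fkbp5, a chaperone of the glucocorticoid receptor and a common readout of its activity, was 77.9, 102 and 121 in Ctrl and 15.8, 67.0 and 17.4 in CIA (fall of 1.89, adjusted p = 0.156 by limma), so that CIA 2 stood apart from the other CIA libraries. Nr3c1, the receptor itself, was 54.3, 46.1 and 48.0 in Ctrl and 37.7, 31.1 and 33.6 in CIA, a difference of -0.53. Tsc22d3, another target, was 380, 367 and 396 in Ctrl and 379, 545 and 443 in CIA and did not follow.

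Some single genes outside the lists had an adjusted p just above 0.05 and groups that did not overlap. Crispld2, a secreted protein that binds endotoxin, was 34.8, 34.8 and 30.4 in Ctrl and 6.08, 11.51 and 5.47 in CIA. Cybb, the core of the phagocyte oxidase, was 33.0, 27.0 and 29.5 in Ctrl and 69.8, 55.6 and 75.8 in CIA. Lrp1, a scavenger receptor that takes up Apoe particles, was 9.05, 7.53 and 11.7 in Ctrl and 24.5, 29.6 and 39.3 in CIA. Bcl2, which keeps lymphocytes alive, was 115, 103 and 123 in Ctrl and 62.6, 65.9 and 67.7 in CIA.

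A pair of ribosomal genes of near-identical sequence traded values between libraries. Rps27 was 774, 781 and 790 in Ctrl, 1072 in CIA 1 and 1.51 and 1.14 in CIA 2 and CIA 3, whereas Rps27rt, a copy on another chromosome, was 69.3, 58.5 and 66.9 in Ctrl, 130 in CIA 1 and 1617 and 1533 in CIA 2 and CIA 3. The assignment of reads between the copies differed among libraries of 1 group, so both calls are uncertain.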
